A study of Mus musculus with 6 samples.

Results

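The interferon regulatory factor genes Irf1, Irf2, Irf3, Irf4, Irf5, Irf7, Irf8 and Irf9 were followed in macrophages of pancreatic islets and of visceral fat. They are 8 of the 50600 genes in the count table, were taken by gene symbol, and each matched 1 entry. All 8 had enough reads to be among the 12152 genes tested. The macrophages came from 12-week-old C57BL/6J males on a chow diet, with no treatment and no engineered allele named in the labels, and were sorted as live cells carrying CD45, F4/80 and CD64. There were 3 islet libraries and 3 libraries from epididymal fat, numbered 2, 4 and 6 in both tissues. The design text says that both tissues came from the same animals, so that equal numbers were taken as 1 animal. The labels do not say whether an islet library is from 1 mouse or pools several. Total counts ran from 4089980 to 9235591 per library. All 7 macrophage genes followed had counts in every library, and their levels summed to 4361 to 6894 CPM in islet and 6442 to 7994 CPM in fat (CPM, read counts scaled to a common library size by TMM). Ptprc, Adgre1 and Fcgr1, which encode the sorted proteins, and Csf1r and Cd68 were among them. The other two were lower in every islet library than in any fat library, Mertk at 15.1 to 34.5 against 183 to 241 CPM and Lyz2 at 1052 to 1753 against 3084 to 4304 CPM. Beta cell genes summed to 2676 to 7862 CPM in islet and to at most 4.91 CPM in fat libraries. Stroma genes summed to 72.1 to 310 CPM in fat and to at most 2.58 CPM in islet. Adipocyte genes summed to 12.8 to 37.3 CPM in fat and to 0 in islet. Endothelium genes overlapped, at 19.1 to 122 CPM in fat and 7.45 to 19.8 CPM in islet. The part of RNA from such tissue cells in the differences below was not tested.

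Interferon regulatory factors (IRFs) are transcription factors that share an amino-terminal DNA-binding domain and recognise GAAA-rich DNA. IRF3 and IRF7 are switched on by kinases below nucleic acid sensors and start interferon transcription, and IRF9 brings DNA binding to the complex ISGF3, through which type I interferon acts on its target genes. IRF1 is induced by interferon gamma and IRF2 often opposes it. IRF5 drives inflammatory cytokine genes, whereas IRF4 and IRF8 bind DNA weakly alone and pair with partners such as PU.1. In macrophages IRF8 is known as a factor of myeloid identity and IRF4 as a factor of alternative activation.

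Some promoters of this family carry known entry points for interferon signals, and 4 promoters of the family are shown here. A gamma-activated site (GAS), an element through which interferon gamma acts on its target genes, was searched as TTCNNNGAA, which reads alike on both strands. An interferon-stimulated response element (ISRE), bound by ISGF3 and by IRFs, was searched as GAAANNGAAA on both strands. The composite element at which PU.1 pairs with IRF4 or IRF8 was searched as GGAANNGAAA on both strands, a search added after the data were seen. Each window spans 250 bases before to 50 bases after a transcript start in RefSeq (GRCm38.p6), is given 5′ to 3′ on the plus strand, the coding strand of these genes, and has the matches in capitals. The 8 genes had 11 such windows. Irf8 and Irf4 are shown as the members with the largest rise and the largest fall, and Irf1 and Irf2 as the other members with a match.
Irf8, chr8:120736108-120736407: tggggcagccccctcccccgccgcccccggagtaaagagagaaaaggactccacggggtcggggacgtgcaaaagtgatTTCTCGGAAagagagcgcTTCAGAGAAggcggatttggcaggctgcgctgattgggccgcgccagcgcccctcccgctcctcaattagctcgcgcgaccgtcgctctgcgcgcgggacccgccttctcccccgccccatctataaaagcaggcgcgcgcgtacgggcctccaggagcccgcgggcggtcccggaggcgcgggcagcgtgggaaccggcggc
Irf4, chr13:30748983-30749282: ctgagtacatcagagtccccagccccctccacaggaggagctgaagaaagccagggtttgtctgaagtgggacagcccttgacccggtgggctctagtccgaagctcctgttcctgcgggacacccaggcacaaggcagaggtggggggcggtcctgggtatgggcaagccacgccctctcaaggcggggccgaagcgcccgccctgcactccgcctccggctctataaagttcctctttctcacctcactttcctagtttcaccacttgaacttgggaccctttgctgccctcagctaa
Irf1, chr11:53769764-53770063: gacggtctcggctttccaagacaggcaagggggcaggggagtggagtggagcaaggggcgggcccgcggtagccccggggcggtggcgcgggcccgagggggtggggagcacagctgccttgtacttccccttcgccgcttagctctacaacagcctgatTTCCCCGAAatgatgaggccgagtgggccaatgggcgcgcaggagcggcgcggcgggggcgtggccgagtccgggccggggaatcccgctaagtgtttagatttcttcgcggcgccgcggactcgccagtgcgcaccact
Irf2, chr8:46739495-46739794: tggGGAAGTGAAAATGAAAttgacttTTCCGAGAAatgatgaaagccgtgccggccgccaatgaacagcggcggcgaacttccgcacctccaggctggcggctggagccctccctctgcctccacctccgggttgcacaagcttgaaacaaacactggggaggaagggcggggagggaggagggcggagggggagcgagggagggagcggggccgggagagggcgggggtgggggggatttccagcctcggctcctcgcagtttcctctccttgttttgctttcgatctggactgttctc
The Irf8 window held 2 GAS matches, which begin at positions -171 and -153 from the transcript start. The Irf1 window held 1 GAS match, at -90. The Irf2 window held the composite match at -247, an ISRE match at -241 that overlaps it, and a GAS match at -224. No match to these letters lay in the windows of Irf3, Irf4, Irf5, Irf7 or Irf9, nor in a further window each of Irf1 and Irf8. Of all 32851 promoter windows of 300 bases in the same table, 8.3% held a GAS match, 3.44% an ISRE match and 2.72% a composite match. A match describes the sequence and is no evidence that the site was used in these cells.

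The family changed its make-up between the tissues. Irf8, Irf9 and Irf7 were higher in islet than in fat macrophages, Irf4 was lower, and Irf1, Irf2, Irf3 and Irf5 did not pass the test. The test was edgeR's quasi-likelihood test on raw counts, adjusted over all genes by Benjamini-Hochberg, with a threshold of 0.05 on the adjusted p. Thus 4 of the 8 passed (50%), against 19.4% of all genes tested. The median log2 difference of the 8 was 0.22, against 0.01 over all genes. By direction, 3 were higher (37.5%, against 8.97% of all genes) and 1 lower (12.5%, against 10.5%). This fit leaves the pairing by replicate number out. With that number as a block, 2 members were higher and 1 lower, against 884 and 1103 of 12152 genes. The libraries of the tissues did not overlap for 6 of the 8 members (75%), against 40.6% of all genes, 4 of them higher in islet (50%, against 18.2% of all genes) and 2 lower (25%, against 22.3%). Levels are given below as CPM and differences as log2 of islet over fat.

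**Figure D1:**
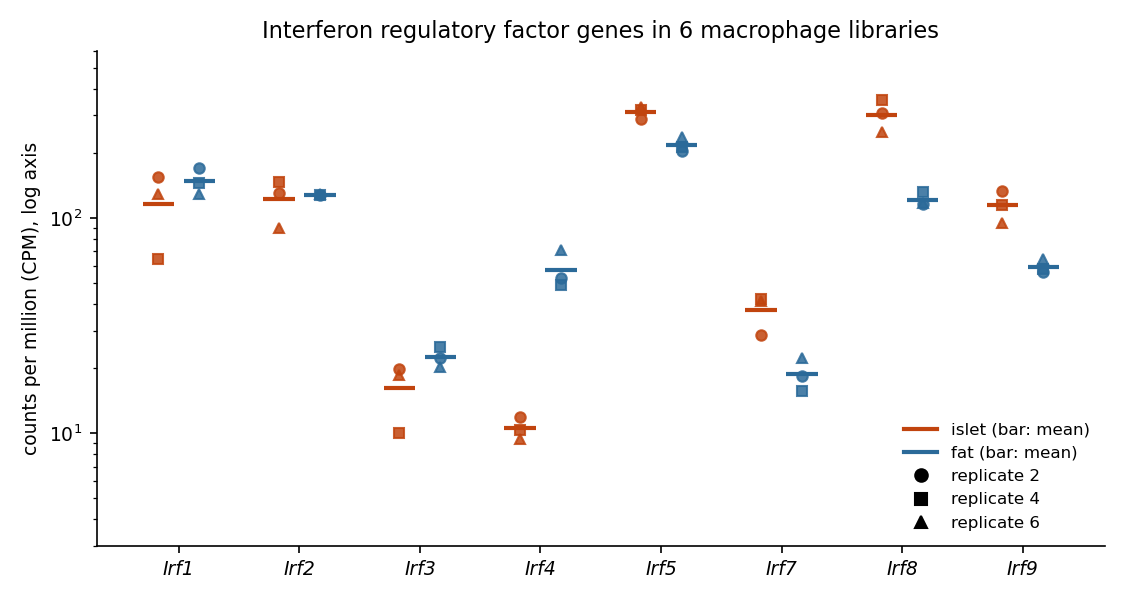
CPM (log axis) of the 8 genes in each library, with islet in orange, fat in blue, a symbol for each replicate number and a bar at the mean of 3 libraries. Irf8, Irf9, Irf7 and Irf5 lie higher in every islet library than in any fat library, Irf4 and Irf3 lie lower in every islet library, and Irf1 and Irf2 overlap.

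Irf8 (ENSMUSG00000041515.9, chromosome 8, 120736358 to 120756694) had the largest rise of the family. The 3 islet libraries, 2, 4 and 6 in that order here and below, had 307, 352 and 250.4 CPM, and the fat libraries in the same order had 116, 132 and 118 CPM. All 3 islet libraries were above all 3 fat libraries, by a wide gap. The means were 303 ± 51.0 CPM in islet and 122 ± 8.87 CPM in fat (SD, n = 3 per tissue), and the fitted difference was 2.49-fold (log2 1.31 ± 0.24, SE, edgeR adjusted p = 0.00599). Its 95% interval was 0.77 to 1.86 on the log2 scale. Without fat replicate 2 the estimate was 1.26 and the gene just missed the threshold (edgeR adjusted p = 0.0534, the highest of 15 alternatives, whose lowest was 2.44e-06). Islet libraries 2 and 4 held 9.55% and 10.4% of their counts in 8 heat shock genes, against 0.812% in islet library 6 and 0.26% to 0.292% in fat. Islet library 6 had the lowest Irf8 of the islet libraries, and without libraries 2 and 4 the difference was 0.96 (edgeR adjusted p = 0.00259). That fit assumes that the lone islet library varies like the fat libraries.

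Irf9 (ENSMUSG00000002325.14, chromosome 14, 55603571 to 55610030), the DNA-binding subunit of ISGF3, stood at 134, 115 and 95.2 CPM in the islet libraries and at 55.9, 58.0 and 64.3 CPM in the fat libraries. The islet values were all higher, and fat varied little. The means were 115 ± 19.3 and 59.4 ± 4.41 CPM, a 1.93-fold difference (log2 0.95 ± 0.23, SE, edgeR adjusted p = 0.0202). The call was lost without fat replicates 2, 4 or 6 or islet replicate 2 (edgeR adjusted p = 0.121, 0.125, 0.077 and 0.0624), although every such estimate was at least 0.81 on the log2 scale. Over the 15 alternatives its adjusted p ran from 0.00192 to 0.125. Without islet libraries 2 and 4 the difference was 0.60 on the log2 scale (edgeR adjusted p = 0.0432), as islet library 6 again held the lowest islet level.

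Irf7 (ENSMUSG00000025498.15, chromosome 7, 141262706 to 141266481), the interferon-inducible partner of IRF3, was a low-level transcript with 28.6, 42.1 and 41.4 CPM in islet and 18.4, 15.8 and 22.4 CPM in fat libraries. Every islet library was above every fat library, although islet library 2 was close to fat library 6. The means were 37.4 ± 7.59 and 18.9 ± 3.30 CPM, a 1.98-fold difference (log2 0.99 ± 0.29, SE, edgeR adjusted p = 0.0415). This was the least firm of the 4 calls. With the replicate number as a block the difference was 0.98 and did not pass (edgeR adjusted p = 0.0736), and it was lost without fat replicates 2, 4 or 6 or islet replicate 4 (edgeR adjusted p = 0.169, 0.21, 0.0894 and 0.0684). Estimates stayed between 0.81 and 1.14 and adjusted p between 0.0102 and 0.21 over 15 alternatives.

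A plasmacytoid dendritic cell list was followed because those cells are rich in IRF8 and IRF7. Its 5 genes summed to 125 to 266 CPM in islet and 24.2 to 38.6 CPM in fat libraries. Nearly all of this was Siglech, at 124 to 266 CPM in islet and 23.4 to 38.3 CPM in fat. The list's Pacsin1 and Klk1 had no counts in islet, and Ccr9 and Cox6a2 were at or below 1.61 CPM in every library. Genes of B cells summed to at most 5.45 CPM in any library, and T and NK cell genes were at 0 in islet and at most 6.59 CPM in fat. In RNA from a sorted population, fewer cells of a type and less RNA per cell cannot be told apart.

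Irf4 (ENSMUSG00000021356.9, chromosome 13, 30749226 to 30766976) went the other way and had the largest difference of the family. Its islet levels were 11.9, 10.3 and 9.43 CPM, from 59, 36 and 70 reads, and its fat levels 52.8, 49.0 and 71.3 CPM. The islet libraries were close to one another and all far below fat. The means were 10.5 ± 1.25 and 57.7 ± 11.9 CPM, 5.47-fold lower in islet (log2 -2.45 ± 0.28, SE, edgeR adjusted p = 0.000619). The 95% interval was -3.08 to -1.82. Irf4 passed in all 15 alternatives, with estimates from -2.69 to -2.28.

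Lists of conventional dendritic cell, plasma cell and monocyte genes also had higher summed levels in every fat library than in any islet library. B cell sums overlapped, at 1.21 to 5.45 CPM in islet and 2.71 to 4.51 CPM in fat. Conventional dendritic cell genes (5 of 5 with counts in both tissues) summed to 8.49 to 16.5 CPM in islet and 78.9 to 95.8 CPM in fat, and the higher sum in fat came from Cd209a (53.9 to 70.3 CPM, against at most 3.44 CPM in islet) and Zbtb46 (20.9 to 25.3 CPM, against at most 3.10 CPM in islet). The other 3 genes overlapped between the tissues and reached their highest level in an islet library. Xcr1 and Clec9a, which define the cross-presenting subset, were at most 3.43 and 11.7 CPM in islet and 1.19 and 3.50 CPM in fat, and Flt3 was at most 5.16 CPM in islet and 2.65 CPM in fat. Plasma cell genes summed to at most 7.95 CPM in islet and to 20.1 to 22.3 CPM in fat. Sdc1 made up the whole islet sum and stood at 11.8 to 12.6 CPM in fat. Jchain, Mzb1 and Tnfrsf17 were at 0 in islet. Of these, Jchain reached 6.10 CPM in fat. Monocyte genes, almost all of it Ccr2, summed to 41.2 to 139 CPM in islet and 213 to 363 CPM in fat. The part of these cells in the Irf4 difference was not tested.

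**Figure D2:**
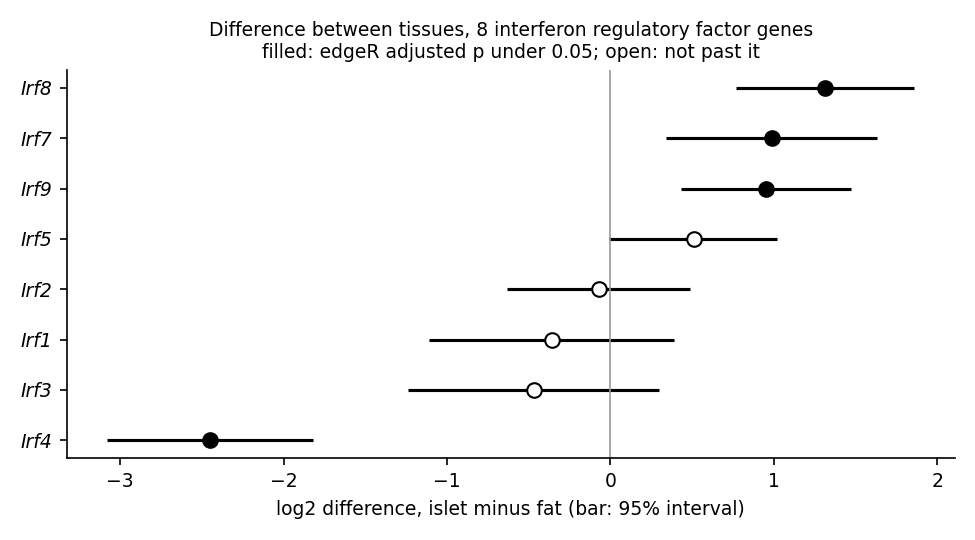
Fitted log2 difference, islet minus fat, of each gene with its 95% interval, ordered by size and filled where the edgeR adjusted p is under 0.05. Irf8, Irf7 and Irf9 sit near 1 or above, Irf4 at -2.45, and the intervals of Irf5, Irf2, Irf1 and Irf3 reach 0.

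The remaining members did not pass, which does not show that they were equal. Irf5 (chromosome 6, 29526625 to 29541871) stood at 288, 319 and 329 CPM in islet and 206, 215 and 239 CPM in fat. All islet libraries were above all fat libraries, by less than in Irf8. The log2 difference was 0.51 ± 0.23 with a 95% interval of -0.01 to 1.02 (edgeR adjusted p = 0.158). Exons of Tnpo3 on the opposite strand cover 14.1% of the Irf5 exon length, and as the strand setting is not given, reads there cannot be told apart. For the other members such overlaps covered at most 3.4%.

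Irf3 (chromosome 7, 44997648 to 45002848), the factor that starts interferon beta transcription, stood at 20.0, 10.0 and 18.7 CPM in islet and 22.4, 25.1 and 20.4 CPM in fat. The islet libraries were all lower, 2 of them only just, and library 4 with 35 reads was the lowest. The log2 difference was -0.47 ± 0.34 with an interval of -1.24 to 0.30 (edgeR adjusted p = 0.389). Irf1 (chromosome 11, 53770014 to 53778374) stood at 155, 64.2 and 129 CPM in islet and 172, 145 and 129.9 CPM in fat. Islet library 4 was low and the other libraries overlapped. Its difference was -0.36 ± 0.33, with an interval of -1.11 to 0.39 (edgeR adjusted p = 0.508). Irf2 (chromosome 8, 46739732 to 46847458) stood at 131, 146 and 90.0 CPM in islet and 128, 129 and 129 CPM in fat. Islet libraries lay on both sides of fat. Its difference was -0.07 ± 0.25, with an interval of -0.63 to 0.49 (edgeR adjusted p = 0.868), and it turned to 0.10 without islet replicate 6 (edgeR adjusted p = 0.743).

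Scatter among islet libraries differed between members. The coefficient of variation over 3 islet libraries was 40.3% for Irf1, 33.3% for Irf3 and 23.8% for Irf2. It was 11.8% for Irf4 and 6.93% for Irf5. In fat it was between 0.259% (Irf2) and 20.7% (Irf4). The Irf2 value, from 1358, 969 and 1097 reads, is smaller than the counting error of such numbers alone and cannot be read as low scatter. Islet library 4, with the fewest counts, held the lowest Irf1 and Irf3 and the highest Irf8, Irf7 and Irf2 of the islet libraries. A list of 6 immediate early genes, which respond to handling, took 0.520%, 0.717% and 0.113% of the islet counts and 1.28% to 1.54% in fat. The mean of Irf1, itself quickly inducible, was 116 ± 46.8 CPM in islet and 149 ± 21.2 CPM in fat (SD, n = 3), and the part of handling in its scatter was not tested.

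To compare genes with each other, CPM were divided by the merged exon length in kilobases (RPKM). Irf5 was the most abundant member in both tissues, at 107 ± 7.44 RPKM in islet and 75.7 ± 5.87 RPKM in fat (SD, n = 3). In islet, Irf8 followed at 43.0 ± 7.23, then Irf1 at 29.2 ± 11.8, Irf9 at 21.3 ± 3.58, Irf2 at 16.6 ± 3.94, Irf7 at 9.90 ± 2.01, Irf3 at 4.72 ± 1.57 and Irf4 at 2.15 ± 0.254 RPKM. Irf8, Irf1, Irf9 and Irf2 each overlapped the next below it or above it in the 3 libraries, while Irf5 stood clear at the top and Irf7, Irf3 and Irf4 stood clear of one another at the bottom. In fat, Irf1 was next to Irf5 at 37.5 ± 5.34 RPKM. Irf2 (17.4 ± 0.0451) and Irf8 (17.3 ± 1.26) overlapped, as did Irf4 (11.8 ± 2.44) and Irf9 (11.0 ± 0.818), and Irf3 (6.57 ± 0.688) and Irf7 (4.99 ± 0.874). With the longest annotated transcript as the length, overlapping neighbours changed places, Irf9 with Irf2 in islet and Irf2 with Irf8 and Irf4 with Irf9 in fat.

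Thus, by merged exon length, Irf4 went from place 5 in fat to place 8 in islet, and Irf8 from place 4 to place 2. With the longest transcript as the length, the moves were from place 6 to 8 and from place 3 to 2. Irf8 overlapped a neighbour in both tissues and Irf4 did so in fat, so their exact places are not settled. Of the summed RPKM of the 8 genes, Irf4 held 6.44% ± 1.16 in fat and 0.917% ± 0.0874 in islet (SD, n = 3). Irf8 held 9.49% ± 0.852 in fat and 18.3% ± 2.97 in islet. The ratio of Irf8 to Irf4, per length, was 17.9, 23.7 and 18.5 in the islet libraries and 1.52, 1.87 and 1.15 in the fat libraries. Being taken within a library, these ratios do not depend on library scaling. They could not overlap, because every islet library was above fat for Irf8 and below fat for Irf4. The 2 genes are also the largest rise and the largest fall of the family, so the ratios are no separate evidence. Irf5 held 41.3%, 47.1% and 49.4% in islet and 39.3%, 41.3% and 43.9% in fat, which did overlap. The sum itself was 234 ± 5.29 RPKM in islet and 182 ± 4.57 RPKM in fat.

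**Figure D3:**
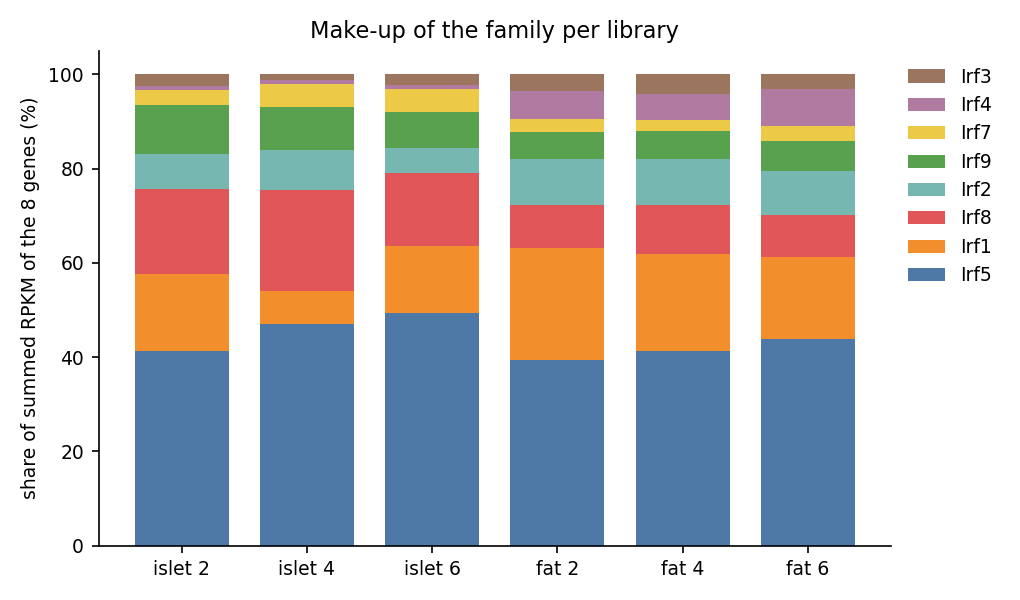
Share of each gene in the summed RPKM of the 8 genes, 1 bar per library. Irf8 takes 15.5% to 21.4% of the islet bars and 8.91% to 10.5% of the fat bars, and Irf4 takes 0.838% to 1.01% of the islet bars and 5.59% to 7.76% of the fat bars.

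Genes whose profile over the 6 libraries was most like that of Irf8 and Irf4 were sought among 4556 genes whose average log2 CPM was 5 or more, by the root-mean-square gap between log2 CPM profiles that were each centred on their own mean. Closest to Irf8 were H2-Aa, an MHC class II chain (gap 0.0891), Ptms, parathymosin (0.0949), and Tpd52 (0.115). H2-Aa stood at 5898, 6650 and 4654 CPM in islet and 1969, 2170 and 1996 CPM in fat. Its islet order was that of Irf8, which the choice by likeness over the same libraries favours. Closest to Irf4 were Tns1, which encodes the adhesion protein tensin (0.130), Ap1b1, a subunit of the clathrin adaptor AP-1 (0.138), and Cask, a scaffold kinase (0.139).

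The genes around the family were described through 8 lists written with earlier results of these data known. Over all genes tested 8.97% were higher and 10.5% lower. Upstream, among 17 sensors, adaptors and kinases that activate IRFs, 4 were higher, 1 lower and 12 not past the threshold, with a median of 0.71. Traf3, a ubiquitin ligase on the route to IRF3 and IRF7, rose 4.50-fold (166, 80.8 and 186 CPM in islet libraries, 28.7, 32.2 and 35.4 CPM in fat). Ticam1, the adaptor of TLR3 and TLR4, rose 4.91-fold (edgeR adjusted p = 0.00279 and 0.00465 for Traf3 and Ticam1). Tlr7, an RNA sensor, was lower at 111 against 229 CPM (edgeR adjusted p = 0.01), but the call was lost when fat replicate 2 or 6 was left out (edgeR adjusted p = 0.0606 and 0.0525). Lower genes of this list thus numbered 0 there, and 2 without islet replicate 6. The kinase genes Tbk1 and Ikbke were not past the threshold (log2 -0.07 ± 0.38 and -1.54 ± 1.09), and these and the other genes named outside the rule in the methods were chosen after their values were seen.

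Of 8 interferon receptor, JAK and STAT genes, 2 were higher and 0 lower in edgeR (0 also at an unadjusted p under 0.05, in DESeq2 and in limma voom), with a median of 0.29. Ifnar2, a chain of the type I interferon receptor, stood at 178, 112 and 143 CPM in islet and 46.0, 45.0 and 50.3 CPM in fat (log2 1.61 ± 0.25, edgeR adjusted p = 0.00264). Ifngr2, a chain of the interferon gamma receptor, stood at 172, 101 and 170.0 CPM in islet and 48.8, 40.5 and 40.0 CPM in fat (log2 1.78 ± 0.27, edgeR adjusted p = 0.00281). For both genes all islet libraries were above all fat libraries. Stat2, a subunit of ISGF3 beside Irf9, had a difference of 0.24 ± 0.37 (edgeR adjusted p = 0.696). Of 9 tested partners and co-regulators (Spib was not tested), 1 was higher and 2 lower, with a median of 0.14. Irf2bpl, a relative of the IRF2-binding proteins, rose 11.6-fold from 10.3 ± 1.32 CPM in fat to 119 ± 39.5 CPM in islet (SD, n = 3, edgeR adjusted p = 0.000242). Irf2bp2, an IRF2-binding co-repressor, and Batf3, a partner of IRF4 and IRF8, were lower, with log2 differences of -1.10 ± 0.25 and -1.45 ± 0.39 (edgeR adjusted p = 0.016 and 0.0295), and both missed the threshold without any 1 fat library (edgeR adjusted p = 0.0587 to 0.129). Without islet replicate 4, 3 partners were higher. Spi1, which encodes PU.1, had a difference of 0.76 ± 0.27 (edgeR adjusted p = 0.0833).

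Of 20 ISGF3 target genes, 12 were higher, 2 lower and 6 not past the threshold, with a median of 2.11. Bst2, which tethers virus particles, rose 3.71-fold, and Oasl1, of the oligoadenylate synthetase family, 18.6-fold (edgeR adjusted p = 0.005 and 0.00587). Oasl1 stood at 112, 40.7 and 413 CPM in islet and at most 11.0 CPM in fat, and its log2 difference of 4.22 was 2.92 without islet replicate 6 and 3.61 with the replicate block (edgeR adjusted p = 0.000572 and 0.0111). Ddx60 and Oas2 were lower, with log2 differences of -2.51 ± 0.41 and -1.69 ± 0.29 (edgeR adjusted p = 0.00386 and 0.00427). Islet library 6 held the highest islet level of 17 of the 20 targets. It held the lowest islet level of Irf9 and Irf8 and the highest of Stat2 (40.9, 37.6 and 91.2 CPM in the islet libraries). The cause was not tested. Ifit1, for example, reached 296 CPM in islet library 6, with 6.88 CPM in islet library 4 and 7.38 to 8.89 CPM in fat. The number of targets that were higher was 5, 2 and 4 without fat replicates 2, 4 and 6. That number was 11, 16 and 9 without islet replicates 2, 4 and 6. Calls over all genes moved too, from 1090 of 12152 higher with all libraries. Without fat replicates 2, 4 and 6, 494 of 12600, 466 of 12745 and 547 of 12978 genes were higher. Without islet replicates 2, 4 and 6, 754 of 12999, 1410 of 13072 and 1649 of 12978 genes were higher. Of 15 tested genes linked to IRF1, such as antigen processing genes, 8 were higher and 0 lower in edgeR (0 also at an unadjusted p under 0.05, in DESeq2 and in limma voom), with a median of 1.04, while Irf1 itself did not pass. Gbp3 and Gbp4, interferon-induced GTPases, rose 5.22-fold and 7.91-fold (edgeR adjusted p = 0.000338 and 0.00481). The log2 difference of Gbp4 was 2.98, and 3.64 without fat replicate 2 (edgeR adjusted p = 0.00637), which held 6.52 CPM against 2.79 and 2.00 CPM in the other fat libraries. The higher count there was 2, 2 and 3 without fat replicates 2, 4 and 6, and 1 gene was lower without islet replicate 6. Members of the Gbp and Oas families share sequence.

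**Figure D4:**
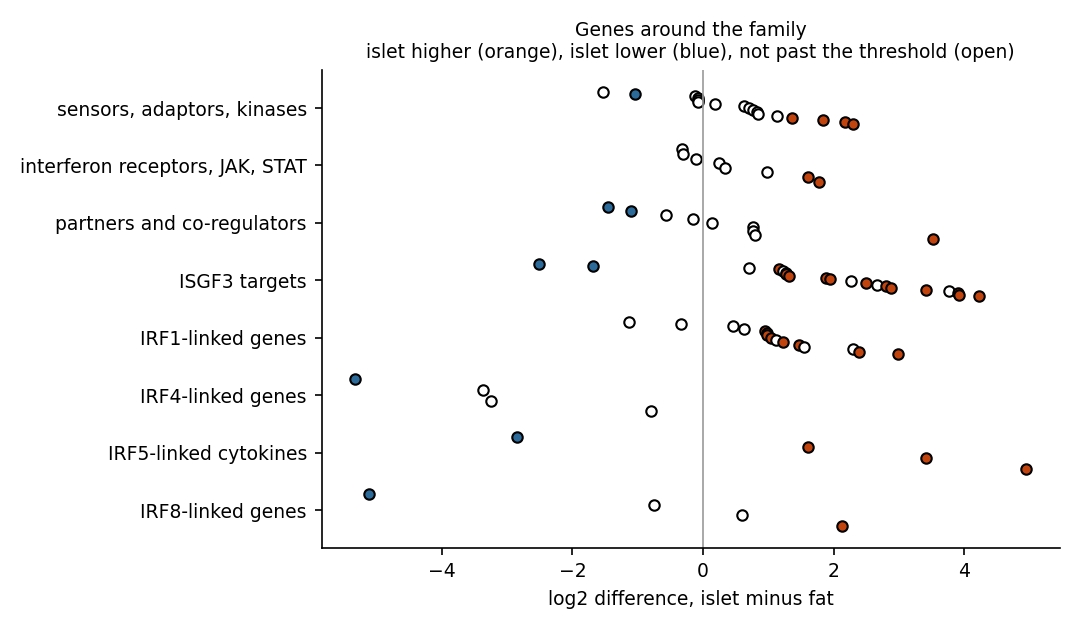
Log2 difference, islet minus fat, of each tested gene in the 8 lists, coloured where the edgeR adjusted p is under 0.05. Retnla and Ccl17, which had no islet counts, are not drawn. Most of the coloured ISGF3 target and IRF1-linked genes lie on the islet side, and Mrc1 lies at -5.33.

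Of 6 tested genes of alternative activation linked to IRF4, 3 were lower and 0 higher in edgeR (0 also at an unadjusted p under 0.05, in DESeq2 and in limma voom). Their median was -4.35, and -3.31 with the genes lacking islet counts at their bound. Retnla had no islet counts and stood at 1510, 1474 and 1926 CPM in fat, a fall of at least 2627-fold if each islet library is set to a floor of 3 counts. Mrc1, the mannose receptor, fell from 4069 ± 211 to 102 ± 52.7 CPM (SD, n = 3, edgeR adjusted p = 0.000297). Ccl17, a chemokine gene, was at 0 in islet and at most 3.12 CPM in fat, at least 3.87-fold lower by the same floor, and was not called with the replicate block (edgeR adjusted p = 0.0973) or without fat replicates 2, 4 or 6 (edgeR adjusted p = 0.0762 to 0.122). Kdm6b, a histone demethylase upstream of Irf4, had a difference of -0.80 ± 0.45 (edgeR adjusted p = 0.257). Of 4 tested cytokine genes linked to IRF5, Il1b rose 10.6-fold and Tnf 3.05-fold (edgeR adjusted p = 0.00104 and 0.018), Il12b was higher too (17.7, 2.01 and 32.2 CPM in islet, 1.51, 0 and 0 CPM in fat, edgeR adjusted p = 0.032), while Il6 was lower (log2 -2.85 ± 0.79, edgeR adjusted p = 0.0345). The median of these 4 was 2.51. Only 1 was higher without fat replicate 4, fat replicate 6 or islet replicate 2, and Il12b was not called in DESeq2 or limma voom (adjusted p = 0.0753 and 0.0501). Tnf and Il6 each missed the threshold without fat replicates 2, 4 or 6 or islet replicate 2 (edgeR adjusted p = 0.0604 to 0.148), and the difference of Il6 was -3.54 without islet replicate 6 (edgeR adjusted p = 0.0098). Of 4 genes linked to IRF8, with a median of -0.08, 1 was higher and 1 lower. Cybb, which encodes the electron-transferring chain of the phagocyte oxidase, rose 4.36-fold, and Klf4, a monocyte transcription factor, was lower (log2 -5.11 ± 0.53, edgeR adjusted p = 0.00187 and 0.000406).

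**Figure D5:**
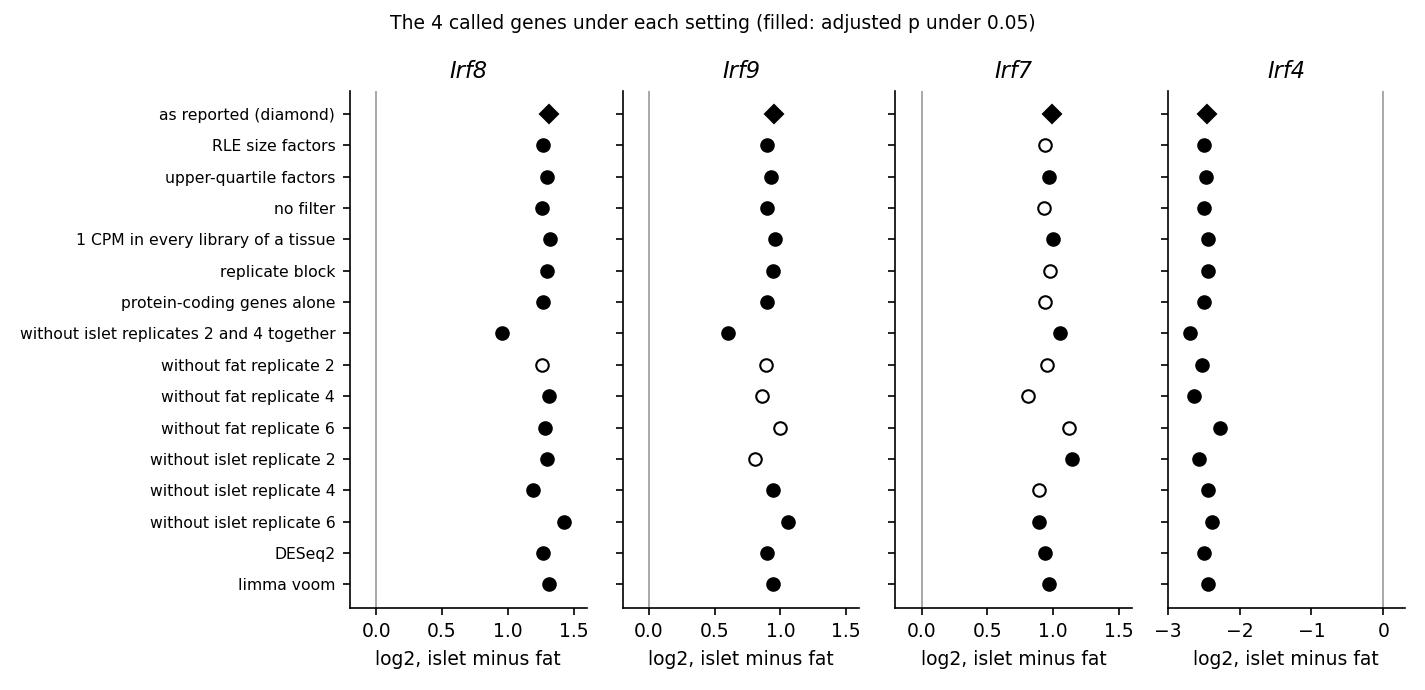
Log2 difference of the 4 called genes as reported (diamond) and under 15 alternatives (circles), filled where the adjusted p is under 0.05. Irf4 is filled throughout, Irf8 is open in 1 alternative, Irf9 in 4 and Irf7 in 8, and no estimate crosses 0.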

How the data were processed

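RNA of sorted macrophages had been sequenced from 10 ng of total RNA per library with a stranded, random-primed low-input kit, per the labels' protocols. The deposited values are raw counts of reads per gene, not normalised by the authors. The submitters' processing notes name STAR, featureCounts, Subread 1.6.4 and GRCm38. Neither the annotation nor the strand setting is named there.

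Positions, exon lengths and exon overlaps came from GENCODE M21 (GRCm38), which held 50376 of 50600 gene identifiers (99.56%). The counts went into edgeR 4.0.16 (R 4.3.3) with filterByExpr by tissue, TMM factors, a robust quasi-likelihood fit on tissue alone, islet minus fat, Benjamini-Hochberg adjustment over 12152 genes. The fit was also run on counts simulated with its own estimate of scatter per gene, the same in both tissues. That run cannot show how the fit handles scatter that differs between tissues, and its outcome is not given here. The 95% intervals use the fit's degrees of freedom and floors cover counting error only. Replicate numbers pair the tissues through the design text. Deviations from the tissue mean correlated, across genes, at 0.046, 0.063 and -0.00759 for equal numbers and at -0.142 to 0.103 for unequal numbers. The main fit left the pairing out because the labels' protocols state no model. Members and lists were chosen with earlier results of these data known. Named genes were the members, in each list the 2 smallest adjusted p values per direction, and the 3 closest profiles (0.5 CPM pseudocount) of the 2 members with the largest difference. Alternatives were DESeq2 1.42.0, voom in limma 3.58.1, upper-quartile or RLE factors, other filters, protein-coding genes alone, the replicate block, and libraries left out. Some genes of the lists are not reported here. A comparison of protein sequences that had been planned was not made. No column was left out.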

Additional observations from a re-analysis of the deposited data

How the results depend on the processing

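With 3 libraries per tissue, the calls of single genes depended on which libraries were kept. Leaving out 1 library at a time, the number of IRF genes higher in islet ran from 0 to 3 and the number lower stayed at 1. In the same fits the log2 difference ran from 1.19 to 1.43 for Irf8, 0.81 to 1.06 for Irf9, 0.81 to 1.14 for Irf7 and -0.23 to 0.10 for Irf2, which turned to 0.10 without islet replicate 6. Irf7 also missed the threshold with RLE size factors (0.94), no filter (0.93), the replicate block (0.98) and protein-coding genes alone (0.94). The replicate block changed no other call among the IRF genes. No estimate of Irf1, Irf3, Irf4 or Irf5 changed direction or side of the threshold.

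Counts in the gene lists, leaving out 1 library at a time, ran from 0 to 2 for lower sensors, adaptors and kinases, 1 to 3 for higher and 0 to 2 for lower partners, 2 to 16 for higher ISGF3 targets, 2 to 9 for higher and 0 to 1 for lower IRF1-linked genes, and 1 to 3 for higher and 0 to 1 for lower IRF5-linked genes. With no filter 2 sensors, adaptors and kinases were lower. DESeq2 called 2 partners higher and 5 IRF4-linked genes lower, and limma voom also called 5 of the latter lower. Without islet replicates 2 and 4 together, which leaves 1 islet library, 5 receptor, JAK and STAT genes and 4 partners were higher, 6 IRF4-linked genes were lower, and 2 IRF8-linked genes were higher and 2 lower. The log2 difference there was 1.17 for Bst2, 1.55 for Ticam1, -2.19 for Il6, -6.61 for Klf4 and for Mrc1, and 5.27 for Oasl1, against 1.89, 2.30, -2.85, -5.11, -5.33 and 4.22 with all libraries. The cause was not tested. That setting moved the median of all genes by -0.11 on the log2 scale, the only shift above 0.1.

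Over all genes, 494, 466 and 547 were higher and 593, 687 and 774 lower without fat replicates 2, 4 and 6, 1649 and 2022 without islet replicate 6, and 2064 and 2916 without islet replicates 2 and 4, against 1090 and 1271 with all libraries. With the longest transcript as the length, 4 of 8 IRF genes kept their place in fat. With the narrower GAS, TTCCNGGAA, 0 members held a match, against 1.15% of all windows. Few reads limit Irf3 and Irf4, with 35 and 36 in islet library 4.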
